A study of Mus musculus with 40 samples.

Results

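The uptake of triglyceride and fatty acid by brown adipose tissue was followed through 10 genes: Lpl, Gpihbp1, Angptl4, Cd36, Slc27a1, Slc27a2, Fabp3, Fabp4, Acsl1 and Acsl5. They were chosen by name, for their place on the route from plasma lipoproteins to activated fatty acid inside the cell, and their rows were found in the deposited count table by Ensembl identifier. All 10 were present among its 52636 genes, and all 10 were among the 17079 that passed the filter on low counts. The tissue came from male C57BL/6 mice aged 10 to 12 weeks in the design text and 10 to 14 weeks in the protocol text. Each mouse received 1 intraperitoneal dose of antibody, and each of the 8 groups held 5 mice. Control mice received an anti-ragweed isotype control antibody at 40 mg/kg, and Jag antibody mice received anti-Jag1 and anti-Jag2, which block ligands of the Notch receptors, at 20 mg/kg each. Both kinds of mice were collected after 15 h, 5 d and 7 d without hormone. A further control group and a further Jag antibody group were collected at 7 d after daily intraperitoneal thyroid hormone from day 2, with T4 at 1 ug/g and T3 at 0.05 ug/g body weight. What the mice without hormone were injected with, if anything, is not given in the sources used here. The antibodies and the hormone reached the whole animal, so the groups model systemic treatment and not a change made in brown fat. The series title sets the study in Notch signalling in the thyroid.

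Brown fat takes up fatty acids as fuel and stores them in lipid droplets. Triglyceride arrives in chylomicrons and very low density lipoproteins, is hydrolysed on the capillary wall by lipoprotein lipase, and the released fatty acids cross the endothelium and the adipocyte membrane, are bound in the cytosol and are joined to coenzyme A before they are oxidised or esterified. Thyroid hormone and sympathetic signals are known to raise the thermogenic activity of this tissue, and the nuclear receptors of the PPAR family are known regulators of many genes on this route.

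Among the genes of the capillary wall, Lpl (ENSMUSG00000015568, chr8:68880491-68907448, plus strand) encodes the lipase itself. Gpihbp1 (ENSMUSG00000022579, chr15:75596628-75599481, plus strand) encodes the endothelial protein that carries the lipase into the capillary lumen and holds it there. Angptl4 (ENSMUSG00000002289, chr17:33773750-33781830, minus strand) encodes a secreted inhibitor of the lipase. Cd36 (ENSMUSG00000002944, chr5:17781690-17888801, minus strand) encodes a membrane receptor that takes up long-chain fatty acids. Slc27a1 (ENSMUSG00000031808, chr8:71568882-71587302, plus strand) and Slc27a2 (ENSMUSG00000027359, chr2:126552407-126588243, plus strand) encode fatty acid transport proteins with acyl-CoA synthetase activity. Fabp3 (ENSMUSG00000028773, chr4:130308595-130315463, plus strand) and Fabp4 (ENSMUSG00000062515, chr3:10204088-10208576, minus strand) encode the heart-type and adipocyte-type cytosolic fatty acid binding proteins. Acsl1 (ENSMUSG00000018796, chr8:46471037-46536051, plus strand) and Acsl5 (ENSMUSG00000024981, chr19:55251938-55297720, plus strand) encode long-chain acyl-CoA synthetases. Coordinates are those of GENCODE M21 on GRCm38 and span the whole gene, introns and UTRs included, because the values are counts per gene.

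Promoter sequence was read for the genes on which the results below turn, as the 250 bases before each RefSeq start on GRCm38.p6, written 5′ to 3′ on the gene's own strand. RefSeq windows were found for 6 of the 10 genes, 9 windows in all, and none for Lpl, Gpihbp1, Angptl4 and Fabp4. Shown are Cd36, Slc27a2 and both starts of Acsl1, genes whose levels were positively correlated between mice, the first of 3 starts of Slc27a1, and Acsl5, which differed from the others in direction. Capitals mark AGGTCA, the core motif of nuclear receptors such as the thyroid hormone receptors and PPARs, or GTGGGAA, a form of the site of RBPJ, the DNA-binding partner of Notch. Both strands were searched, so AGGTCA can appear as TGACCT and GTGGGAA as TTCCCAC. The windows of Cd36, Slc27a2 and Acsl5 and the second window of Acsl1 lie inside the longer spans that GENCODE gives these genes.
Cd36 chr5:17835897-17836146 (minus strand): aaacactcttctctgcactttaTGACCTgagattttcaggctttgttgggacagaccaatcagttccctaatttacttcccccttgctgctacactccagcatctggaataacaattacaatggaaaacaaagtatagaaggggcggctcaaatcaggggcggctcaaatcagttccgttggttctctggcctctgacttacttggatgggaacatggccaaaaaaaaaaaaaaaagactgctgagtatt
Slc27a2 chr2:126552774-126553023 (plus strand): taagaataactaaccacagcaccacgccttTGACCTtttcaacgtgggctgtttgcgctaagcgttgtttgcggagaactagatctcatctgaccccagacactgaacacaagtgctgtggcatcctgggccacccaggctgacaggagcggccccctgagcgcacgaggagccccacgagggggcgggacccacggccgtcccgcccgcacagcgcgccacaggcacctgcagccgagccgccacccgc
Acsl1 chr8:46470787-46471036 (plus strand): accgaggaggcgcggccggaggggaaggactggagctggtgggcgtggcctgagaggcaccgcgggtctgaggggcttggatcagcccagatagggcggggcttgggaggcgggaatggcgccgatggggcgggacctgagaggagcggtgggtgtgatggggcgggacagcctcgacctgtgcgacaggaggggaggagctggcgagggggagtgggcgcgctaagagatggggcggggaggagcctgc
Acsl1 chr8:46490716-46490965 (plus strand): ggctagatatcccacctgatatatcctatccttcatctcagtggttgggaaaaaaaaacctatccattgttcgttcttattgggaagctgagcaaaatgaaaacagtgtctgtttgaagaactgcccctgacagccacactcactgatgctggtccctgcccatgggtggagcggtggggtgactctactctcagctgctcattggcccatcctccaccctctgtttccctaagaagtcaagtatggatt
Slc27a1 chr8:71568621-71568870 (plus strand): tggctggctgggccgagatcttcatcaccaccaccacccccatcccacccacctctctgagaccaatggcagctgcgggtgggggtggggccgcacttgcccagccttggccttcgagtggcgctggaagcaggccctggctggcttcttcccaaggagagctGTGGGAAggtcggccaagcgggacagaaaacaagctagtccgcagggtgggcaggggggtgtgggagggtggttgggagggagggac
Acsl5 chr19:55253119-55253368 (plus strand): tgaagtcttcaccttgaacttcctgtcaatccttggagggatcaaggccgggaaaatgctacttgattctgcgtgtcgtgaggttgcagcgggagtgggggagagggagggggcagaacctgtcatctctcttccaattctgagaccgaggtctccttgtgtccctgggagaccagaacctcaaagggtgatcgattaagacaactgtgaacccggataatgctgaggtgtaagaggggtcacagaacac
AGGTCA was found on the opposite strand in 2 of the 9 windows, with its first base 220 bases before the start of Slc27a2 and 228 bases before that of Cd36. Of 32851 RefSeq windows of the same length, 14.0% held it. GTGGGAA was found in 1 of the 9 windows, 87 bases before the first start of Slc27a1, against 5.42% of all windows. The windows of Acsl1 and Acsl5 held neither string of letters.

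The libraries held 12217623 to 36511893 counts in genes. All 10 brown adipocyte markers were counted in every mouse, Ucp1 with at least 12504 counts. The 6 hepatocyte markers summed to 0 to 14.6 CPM (counts relative to library size) in 37 of the 40 mice, to 125 and 15.9 in control mice 2 and 3 at 5 d and to 49.6 in control mouse 1 given hormone, with Ttr reaching 2479 counts and Alb 761. Fgb was at 0 in 29 mice and Fga in 26. Skeletal muscle transcripts varied widely: at 5 d the summed level of 8 muscle markers was 1018 to 175926 CPM in control mice and 0.878 to 43.9 in Jag antibody mice. Libraries also differed in how far levels depended on exonic length, the length of all annotated exons of a gene together. This length slope, the change in log2 CPM per doubling of exonic length relative to the mean library, was -0.62 to -0.08 in control mice at 7 d and 0.03 to 0.28 in control mice given hormone. The mitochondrial share of counts in control mice was 19.2 to 26.0% at 15 h, 9.72 to 15.47% at 5 d and 15.9 to 25.2% at 7 d. In Jag antibody mice at 5 d it was 15.50 to 22.2%. Its part in the differences was not tested. Whether reads were counted by strand is not given in the sources used here, so reads of Acsl5 and Zdhhc6, which overlap over 26430 bases on opposite strands, cannot be told apart, nor can the shorter overlaps of Acsl1 with Gm45244, Slc27a2 with Gm26697 and Fabp3 with Zcchc17 and Gm10570. Over all mice Acsl5 held 361171 counts and Zdhhc6 17540, and how reads in their overlap were assigned is not given. The values are per tissue sample, so fewer cells of a type and less RNA per cell cannot be told apart. The labels number the mice of each group as separate samples, and p-values measure the spread between these mice.

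Compared per kilobase of the principal transcript, the 10 genes covered a wide range of levels. Fabp4 was the most abundant, with a median over the 40 mice of 13161 CPM per kilobase. Lpl followed with 988, Cd36 with 704 and Acsl1 with 437 CPM per kilobase. Gpihbp1 and Angptl4, the carrier and the inhibitor of the lipase, lay at 135 and 131, and the remaining 4 genes were lower still, with Acsl5 at 69.7, Fabp3 at 64.4, Slc27a2 at 49.1 and Slc27a1 at 42.4 CPM per kilobase. Among the binding proteins Fabp4 lay above Fabp3, and among the acyl-CoA synthetases Acsl1 lay above Acsl5. Acsl5 varied the most, by 17.1-fold between its highest and lowest mouse in CPM, while Angptl4 varied by 3.06-fold and Cd36 by 3.56-fold.

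The group means were ordered differently for each gene, as the plot of levels by group shows. Acsl5 spanned 3.17 log2 units between its highest group, control mice at 7 d (10.34 ± 0.39 log2 CPM, SD, n = 5), and its lowest, Jag antibody mice at 5 d (7.18 ± 0.14, n = 5). Fabp4 spanned 1.71 units, from control mice at 7 d down to control mice given hormone. Slc27a2 spanned 1.65 units and Slc27a1 1.61, both with control mice at 15 h lowest, and their highest groups were Jag antibody mice at 5 d and at 7 d. The other 6 genes spanned 0.92 units (Gpihbp1) to 1.23 units (Acsl1). Control mice at 15 h were the lowest group for 4 genes: Gpihbp1, Slc27a1, Slc27a2 and Acsl1. In that group mice 2 and 3 were lowest for these 4 genes and had the most myeloid markers, at 6275 and 3046 CPM. Between groups next to each other in the order of means, 70 pairs were tested by exact two-sided permutation, with 0.00794 as the smallest possible p. The smallest Benjamini-Hochberg adjusted p was 0.556, which is what 1 pair without overlap can reach among 70, so the adjusted test says little at this size. Before adjustment 4 pairs were under 0.05, in Cd36, Fabp4, Slc27a1 and Acsl5, and the Acsl5 pair, control mice at 7 d over control mice given hormone, did not overlap. That pair is the hormone comparison in control mice at 7 d.

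**Figure D1:**
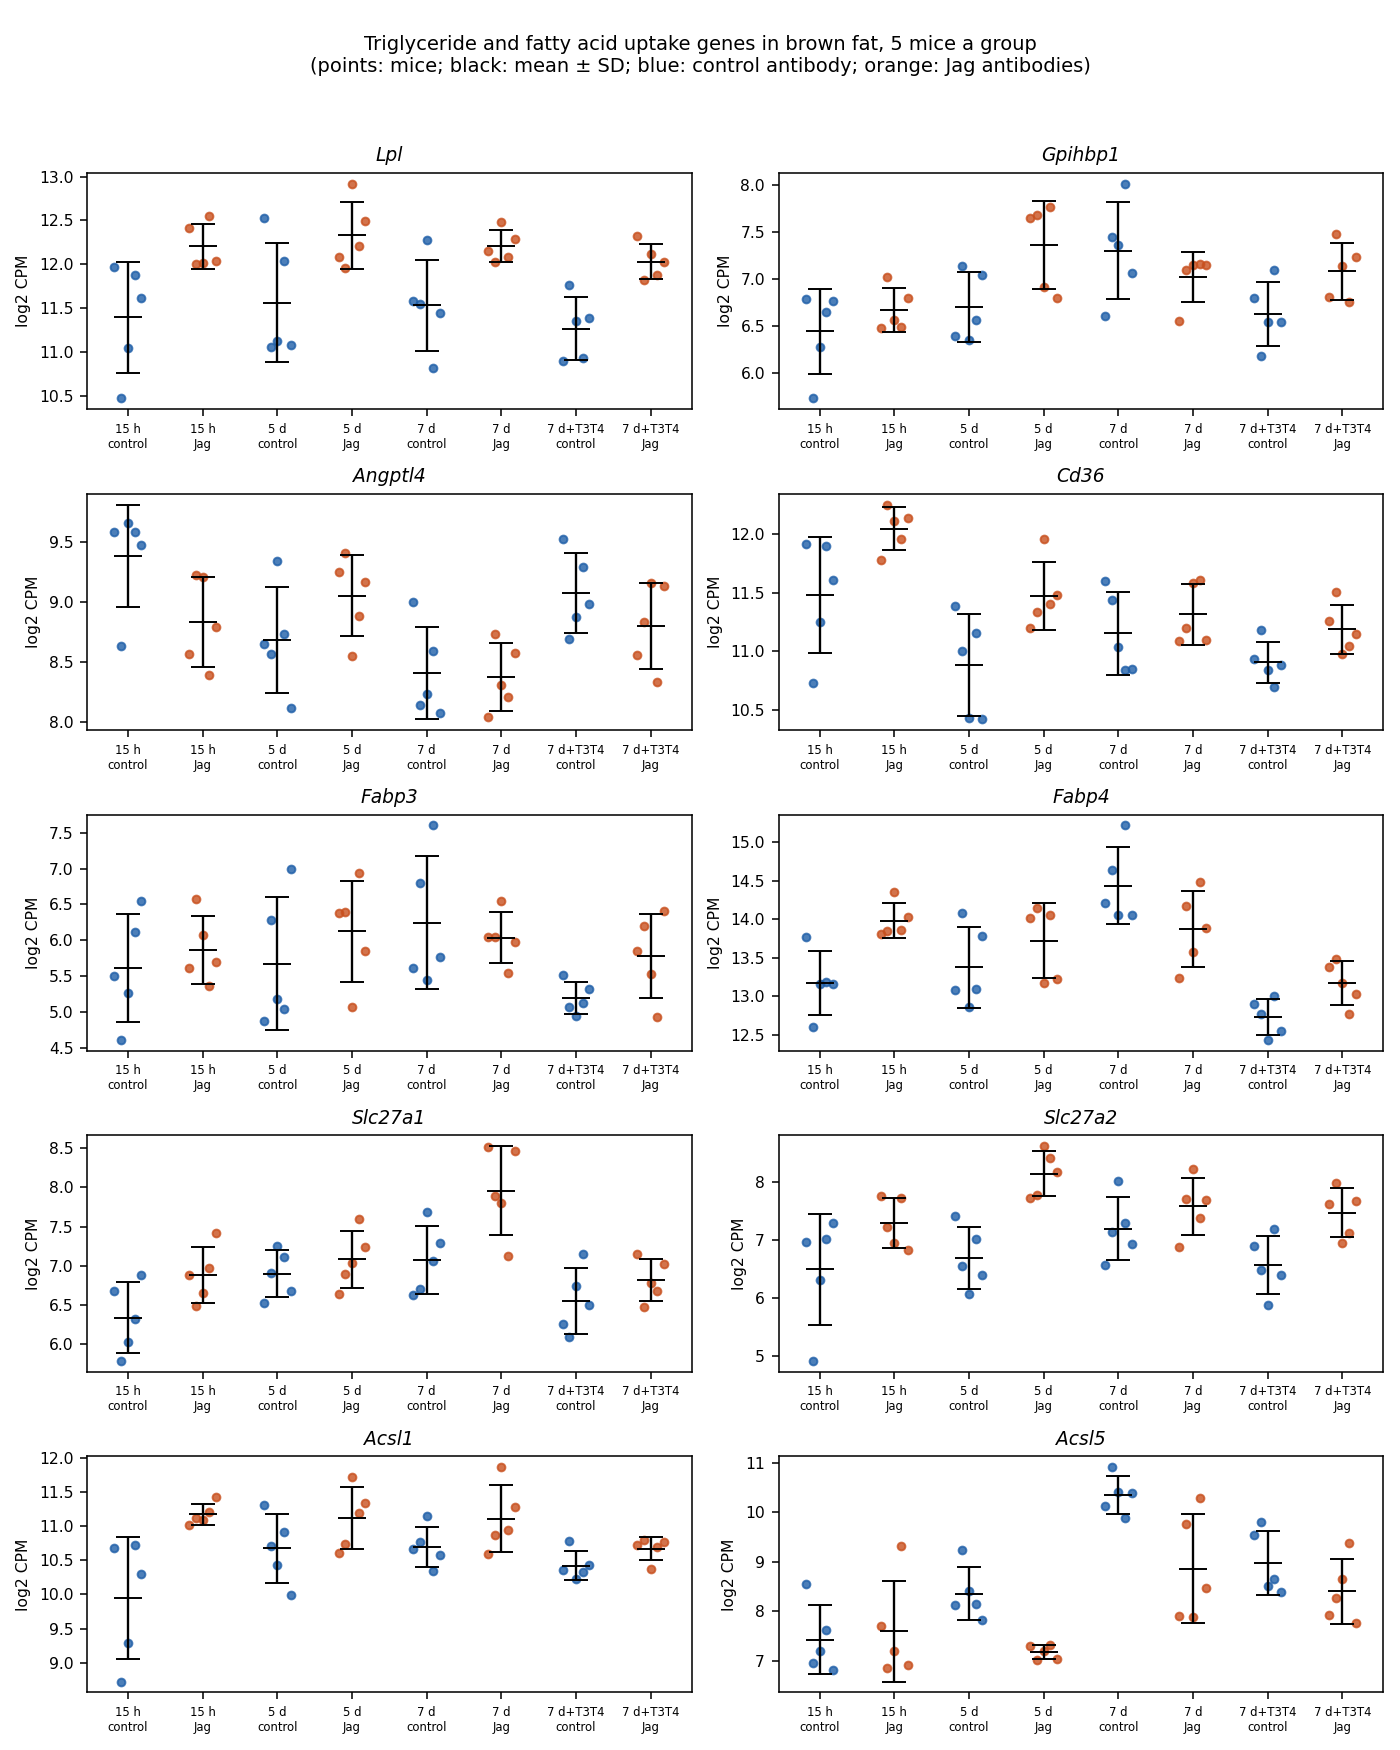
Level of each gene in log2 CPM (vertical axes, 1 panel per gene) in the 8 groups (horizontal axes), with 1 point per mouse, blue for the control antibody and orange for the Jag antibodies, and the group mean ± SD in black. The Lpl points of Jag antibody mice sit above the mean of the control mice in each of the 4 settings, and Acsl5 is highest in control mice at 7 d.

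Blockade of Jag1 and Jag2 was compared with the control antibody in 4 settings that share no mice: 15 h, 5 d, 7 d, and 7 d with added hormone. Lpl, Acsl1, Cd36, Slc27a1 and Slc27a2 had a positive log2 fold change in all 4 settings, but single settings seldom passed the threshold of an adjusted p under 0.05 in edgeR's quasi-likelihood test. The share of all tested genes with a positive value in all 4 settings is not given here. At 15 h, 0 of the 10 genes were called, against 1.14% of all tested genes. At 5 d, 1 was called, Slc27a2, which was higher, against 8.02% of all genes in either direction and 2.09% higher. At 7 d, 1 was called, Slc27a1, also higher, against 2.50% in either direction and 1.21% higher. In mice given hormone 0 were called at 7 d, against 1.14%. At an unadjusted p under 0.05 the counts were 6, 5, 4 and 2 of the 10 in the same order, against 12.0%, 22.9%, 20.5% and 11.9% of all genes. DESeq2 called 1 gene at 15 h and 0 in mice given hormone. The median log2 fold changes of the 10 genes were 0.52, 0.39, 0.05 and 0.37, beside medians of -0.04, 0.04, 0.05 and -0.02 over all tested genes. At 15 h the 10 brown adipocyte markers summed to 2972 to 11775 CPM in control mice and 10671 to 15952 CPM in Jag antibody mice, with 1 called higher, and the 10 myeloid markers to 299 to 6275 and 289 to 566 CPM, with 2 called lower. At 7 d the 10 brown adipocyte markers summed to 16562 to 47651 CPM in control mice and 7934 to 23859 CPM in Jag antibody mice. Of these 10 markers 2 had a positive difference, the median was -0.69 and 0 were called. The length slope at 7 d was -0.62 to -0.08 in control mice and -0.17 to 0.03 in Jag antibody mice. The part of the markers and of the length slope in the differences was not tested.

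For Lpl, control mice at 15 h had 4022, 1422, 2119, 3765 and 3140 CPM and Jag antibody mice 5458, 4111, 4139, 6001 and 4216. Every Jag antibody mouse was above every control mouse at 15 h. At 5 d control mice had 5891, 2132, 2240, 4206 and 2160 CPM and Jag antibody mice 4355, 3980, 7743, 4751 and 5757, so the ranges overlapped through control mice 1 and 4. At 7 d control mice had 3079, 3004, 4950, 1807 and 2788 CPM against 4567, 4174, 5709, 4345 and 5016, with control mouse 3 inside the range of the Jag antibody mice. With hormone at 7 d, control mice had 1911, 3483, 2610, 1961 and 2690 CPM and Jag antibody mice 5138, 3607, 4450, 3752 and 4157, again without overlap. In each setting all 5 Jag antibody mice were above the control median, which was also so for Cd36. For Lpl the log2 fold changes were 0.73 (SE 0.28) at 15 h, 0.68 (SE 0.28) at 5 d, 0.61 (SE 0.28) at 7 d and 0.74 (SE 0.28) with hormone. Their unadjusted p-values were 0.0130, 0.0197, 0.0349 and 0.0116, and their adjusted p-values were 0.204, 0.127, 0.209 and 0.226. No single setting was therefore called for Lpl. Without control mouse 1 the 5 d difference was 0.96 with an adjusted p of 0.0186. Over the 10 fits that left out 1 mouse at 5 d it ran from 0.50 to 0.96, with an adjusted p up to 0.364. Groups that did not overlap in log2 CPM made up 2.48% of all genes at 15 h and 6.59% at 7 d with hormone.

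Among the fatty acid transport proteins, Slc27a2 was higher in Jag antibody mice at 5 d. Control mice had 171, 93.6, 66.7, 129 and 83.6 CPM and Jag antibody mice 211, 220, 393, 341 and 287. The groups did not overlap, as for 4.94% of all genes in this comparison. Jag antibody mice were higher by 1.42 on the log2 scale (SE 0.33, 2.67-fold), with an adjusted p of 0.00969, and it ranged from 1.26 to 1.61 when each of the 10 mice was left out in turn, with the call kept each time. The control mice at 5 d are those with high skeletal muscle transcripts, and 6 of 8 muscle markers were called lower in Jag antibody mice there. With the muscle score as a covariate the Slc27a2 difference was 1.26 with an adjusted p of 0.141, and without the mice of high muscle score, which left 1 control mouse, it was 1.64 with an adjusted p of 0.159. In the other settings the Slc27a2 differences were 0.65 at 15 h, 0.37 at 7 d and 0.88 with hormone, with adjusted p-values of 0.447, 0.536 and 0.225.

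Slc27a1 was higher in Jag antibody mice at 7 d, where they had 365, 236, 223, 139 and 351 CPM against 99.3, 104, 205, 133 and 156 in control mice. Mouse 9 of the Jag antibody group lay within the control range and the other 4 lay above it. As a log2 fold change this was 0.91 (SE 0.25, 1.88-fold), with an adjusted p of 0.0420. The call was close to its threshold: the adjusted p was 0.0533 to 0.153 in the 7 of 10 fits without control mouse 1, 2, 4 or 5 or Jag antibody mouse 6, 8 or 10. It was 0.0748 without the low-count filter and 0.191 in a fit of these 2 groups alone, and without the mice of high muscle score, which left 3 a group, the difference was 1.01 with an adjusted p of 0.279. At 15 h, at 5 d and with hormone the differences were 0.52, 0.19 and 0.24, and none was called.

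The acyl-CoA synthetases differed from each other. For Acsl1 at 15 h, control mice had 1651, 422, 625, 1687 and 1257 CPM and Jag antibody mice 2084, 2236, 2185, 2365 and 2759. The groups did not overlap, and control mice 2 and 3 were far below the rest. The same 2 mice had myeloid markers at 6275 and 3046 CPM, against 299 to 786 in the other control mice, and brown adipocyte markers at 2972 and 5312 CPM, against 9195 to 11775. They were also lowest in their group for Lpl, Gpihbp1, Cd36, Fabp3, Fabp4, Slc27a1 and Slc27a2, but not for Angptl4 or Acsl5. For Fabp4 mouse 3 was close to mouse 5, at 9109 against 9122 CPM. The part of this in the values of Acsl1 and these other genes was not tested. Acsl1 had a log2 fold change of 1.04 (SE 0.28, 2.06-fold) with an adjusted p of 0.0566. It was called by DESeq2 (1.04, adjusted p 0.0110) and with offsets for exonic length and GC content (1.02, adjusted p 0.0319). It was also called without control mouse 1 or control mouse 4 (adjusted p 0.0154 and 0.0152). Over the 10 fits that left out 1 mouse it ran from 0.84 to 1.26, with an adjusted p up to 0.39. A fit of these 2 groups alone called 0 of all genes. The later Acsl1 differences were 0.44, 0.46 and 0.24, with the adjusted p at 0.352 or above.

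Acsl5 went the other way from 5 d on. At 5 d control mice had 281, 603, 340, 285 and 226 CPM and Jag antibody mice 158, 129, 147, 160 and 132. Every Jag antibody mouse was below every control mouse, and the 5 Jag antibody mice lay close together. At 7 d control mice had 1117, 1928, 1359, 940 and 1346 CPM and Jag antibody mice 239, 870, 236, 1246 and 356, so that Jag antibody mouse 9 was within the control range. Acsl5 thus differed by -1.26 (SE 0.46) at 5 d and -1.18 (SE 0.45) at 7 d on the log2 scale, with adjusted p-values of 0.0802 and 0.147. At 5 d the difference was called by DESeq2 (adjusted p 0.0345) and in a fit of these 2 groups alone (adjusted p 0.0227). At 7 d it was called by limma on log2(FPKM + 1) (adjusted p 0.0370) and without Jag antibody mouse 9 (adjusted p 0.0463). Over the fits that left out 1 mouse, the adjusted p was 0.0508 to 0.183 at 5 d and 0.0463 to 0.302 at 7 d. At 15 h the difference was 0.37 and turned to -0.37 without Jag antibody mouse 9, which had 641 CPM against 116 to 207 in its group.

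Cd36 differed by 0.51 at 15 h, 0.57 at 5 d, 0.15 at 7 d and 0.28 with hormone, with the adjusted p between 0.0872 and 0.712. At 15 h control mice had 3860, 1696, 2438, 3808 and 3128 CPM and Jag antibody mice 3523, 4880, 4427, 3969 and 4500, and only Jag antibody mouse 6 overlapped the control range. Fabp4 at 15 h did not overlap, with 13981, 6203, 9109, 9311 and 9122 CPM in control mice and 14367, 14780, 20989, 14811 and 16733 in Jag antibody mice. Its log2 fold change was 0.78 (SE 0.27) at 15 h and -0.57 (SE 0.26) at 7 d, with adjusted p-values of 0.136 and 0.215, so its direction was not the same in all settings. Gpihbp1 differed by 0.68 (SE 0.23) at 5 d with an adjusted p of 0.0655, and by -0.33 at 7 d. With the length and GC offsets the 5 d difference of Gpihbp1 was 0.88 with an adjusted p of 0.00419. Angptl4, the inhibitor, differed by -0.55 (SE 0.23) at 15 h with an adjusted p of 0.281. Its mean log2 CPM differed by 0.37 at 5 d, -0.03 at 7 d and -0.27 with hormone, so its direction also changed between settings. Fabp3 differed by -0.43 to 0.67 over the 4 settings with intervals that all included 0.

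The mean of the 4 antibody differences was tested in the same fit, a contrast added after the values of the single settings had been seen. Of the 10 genes, 6 were called, against 11.7% of all tested genes, 5 of them higher (5.39% of all genes) and 1 lower (6.29%). Lpl was higher by 0.69 (SE 0.14, 1.61-fold), with an adjusted p of 0.00101. Slc27a2 was higher by 0.83 (SE 0.16, 1.78-fold, adjusted p 0.000898), Acsl1 by 0.55 (SE 0.14, 1.46-fold, adjusted p 0.00958), Slc27a1 by 0.47 (SE 0.12, 1.38-fold, adjusted p 0.0122) and Cd36 by 0.38 (SE 0.10, 1.30-fold, adjusted p 0.0160). In this contrast Adipoq, Ppargc1a and Plin5 were called higher among 10 brown adipocyte markers, of which 5 had a positive difference (median 0.08). Ccr2 of 10 myeloid, Mylpf of 8 muscle, Lep of 3 white adipocyte and Alb of 3 tested hepatocyte markers were called lower. Positive differences in these 4 lists numbered 1, 0, 1 and 0, and the part of the markers was not tested. Acsl5 was lower by -0.66 (SE 0.23, 1.58-fold), with an adjusted p of 0.0496 that rose above 0.05 in 24 of the 40 fits that left out 1 mouse, where it reached 0.0849 without control mouse 1 at 15 h. Gpihbp1 (0.25), Fabp4 (0.24), Fabp3 (0.18) and Angptl4 (-0.13) were not called, and the 95% intervals of Angptl4 (-0.37 to 0.10), Fabp3 (-0.23 to 0.59) and Fabp4 (-0.02 to 0.51) included 0. The median over the 10 genes was 0.31, beside -0.01 over all tested genes. With only the 22 mice of low muscle score, which left 1 control mouse at 5 d that is assumed to vary like the other groups, 1 of the 10 was called, Lpl. The other 5 differences kept their direction there, with Slc27a2 at 0.88 (adjusted p 0.0531), Acsl1 at 0.66, Slc27a1 at 0.47, Cd36 at 0.34 and Acsl5 at -0.78.

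**Figure D2:**
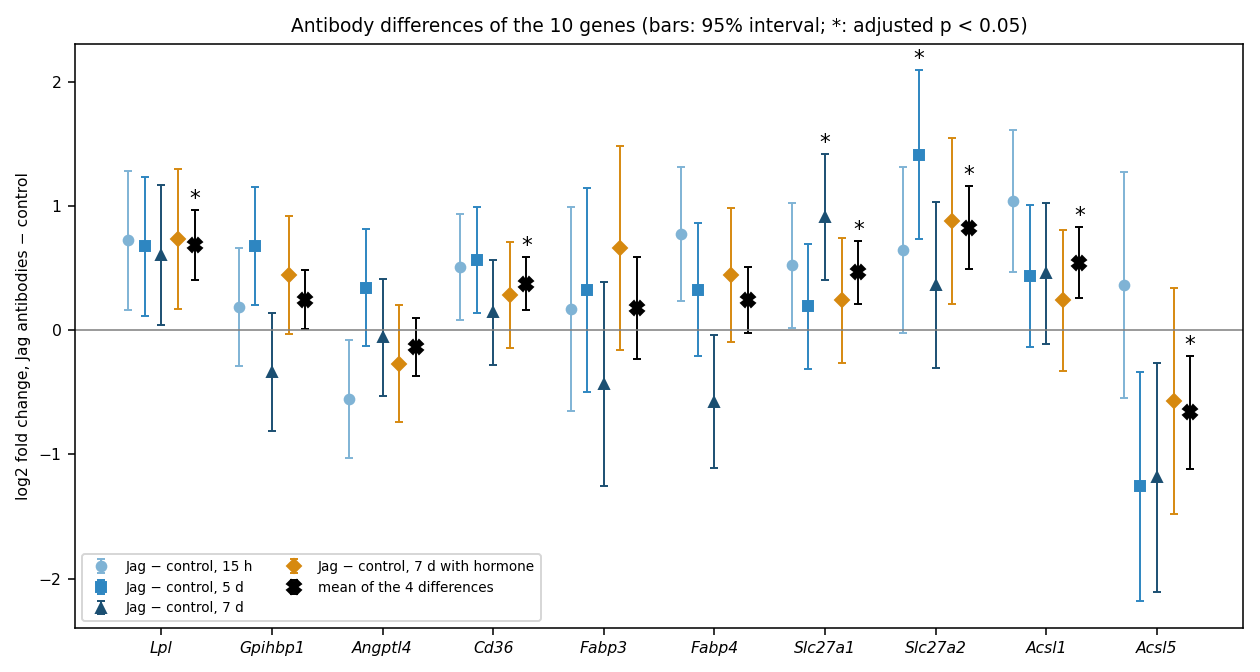
log2 fold change of Jag antibody over control mice (vertical axis) for each gene (horizontal axis) in the 4 settings and as their mean, with bars for the 95% interval and asterisks for an adjusted p under 0.05. Lpl lies between 0.61 and 0.74 in all 4 settings, while Acsl5 runs from 0.37 at 15 h to -1.26 at 5 d.

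Whether the antibody difference changed between settings was tested as an interaction. Between 5 d and 7 d, 0 of the 10 genes were called, against 1.29% of all genes, and 4 had an unadjusted p under 0.05 both in edgeR, against 16.7% of all genes, and in DESeq2, which also called 0. The antibody difference of Gpihbp1 was lower at 7 d than at 5 d by -1.01 (SE 0.33, 95% interval -1.69 to -0.34), with an adjusted p of 0.0909, and that of Slc27a2 by -1.05 (SE 0.47, adjusted p 0.241). Slc27a1 changed by 0.72 (SE 0.35) and Fabp4 by -0.90 (SE 0.37), with adjusted p-values of 0.296 and 0.199. For Gpihbp1 the value with length and GC offsets was -1.01 with an adjusted p of 0.0378. The calls of Slc27a2 at 5 d and of Slc27a1 at 7 d are therefore not shown to belong to 1 time.

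Daily thyroid hormone was compared with no hormone at 7 d, first in control antibody mice. Of the 10 genes, 4 fell and 1 rose, against 22.9% of all tested genes called lower, 20.3% called higher and 43.2% in either direction. Both binding proteins fell, Fabp4 and Fabp3, together with Acsl5 and with Gpihbp1, the carrier of the lipase. The calls of Fabp3 and Gpihbp1 ended with offsets for exonic length and GC content. Angptl4, the inhibitor of the lipase, rose. Lpl, Cd36, Slc27a1, Slc27a2 and Acsl1 were not called. The median over the 10 genes was -0.58, beside 0.04 over all tested genes, and 5 called of 10 is close to the share of all genes.

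For Fabp4, control mice without hormone had 18910, 25545, 17065, 38179 and 16946 CPM and those given hormone 7598, 6985, 5513, 8168 and 5961. All hormone mice were below all mice without hormone, as for 29.8% of all genes in either direction. With hormone Fabp4 had a log2 fold change of -1.77 (SE 0.27, 3.41-fold lower), with an adjusted p of 1.47e-05. It stayed between -1.86 and -1.50 without any 1 mouse and was -1.78 with length and GC offsets. Without the mice of high muscle score, which left 3 control mice and 2 hormone mice, it was -1.31 with an adjusted p of 0.0605, and in that smaller fit 0 of the 10 genes were called, with 3 at an unadjusted p under 0.05.

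Acsl5 was also without overlap: control mice without hormone had the values given above for 7 d, 940 to 1928 CPM, and those given hormone had 742, 894, 366, 400 and 334. Acsl5 had a log2 fold change of -1.29 (SE 0.46, 2.45-fold lower), with an adjusted p of 0.0214. The adjusted p was 0.0577 to 0.0602 without control mouse 2 or without hormone mouse 3 or 5.

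Gpihbp1 had 97.5, 175, 165, 258 and 133 CPM without hormone and 111, 72.3, 92.9, 137 and 92.8 with it. The ranges overlapped, and the highest value was that of control mouse 4. Gpihbp1 had a log2 fold change of -0.71 (SE 0.23, 1.64-fold lower, adjusted p 0.0144), and -0.48 with an adjusted p of 0.115 without control mouse 4. Fabp3 had 48.7, 112, 43.4, 194 and 54.5 CPM without hormone and 45.5, 33.5, 30.8, 34.7 and 40.0 with it. Here 2 mice without hormone, mice 2 and 4, were far above the rest. Fabp3 had a log2 fold change of -1.29 (SE 0.41, 2.45-fold lower, adjusted p 0.0113), and -0.79 with an adjusted p of 0.123 without control mouse 4. Angptl4 had 510, 283, 301, 385 and 269 CPM without hormone and 736, 414, 469, 627 and 506 with it. Only control mouse 1 lay within the hormone range. Angptl4 had a log2 fold change of 0.65 (SE 0.23, 1.57-fold, adjusted p 0.0230), and the adjusted p was 0.0635 to 0.0788 without control mouse 2 or 5 or hormone mouse 1.

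The length slope of the libraries moved with this comparison, without overlap between the groups, and 3 of the 10 genes have short principal transcripts: Fabp3 with 823 bases, Gpihbp1 with 825 and Fabp4 with 896, against 2795 to 4243 for the other 7. Other library measures did not overlap either. The TMM factor, which scales library size, was 0.65 to 0.93 without hormone and 1.01 to 1.18 with it. The mitochondrial share of counts was 15.9 to 25.2% without and 10.8 to 15.5% with hormone, and the part of both was not tested. Over the 40 mice, deviations from group means followed the length slope with r = -0.74 for Fabp3, -0.73 for Gpihbp1 and -0.77 for Fabp4, and with r = 0.65 for Lpl. The offsets used the exonic length of a gene, all its annotated exons together, and not its principal transcript. This was 823 bases for Fabp3, 2554 for Gpihbp1 and 4489 for Fabp4. It was 5835 for Slc27a1, 10478 for Lpl and 10483 for Acsl1. With per-library offsets for exonic length and GC content, Fabp3 was at -0.15 (adjusted p 0.696) and Gpihbp1 at -0.35 (adjusted p 0.114), so that both calls ended. Fabp4, Acsl5 (-1.42) and Angptl4 (0.74) were called with the offsets too. Lpl (-0.75, adjusted p 0.00576), Slc27a1 (-0.88, adjusted p 0.00107) and Acsl1 (-0.76, adjusted p 0.0170), which had been at -0.30, -0.53 and -0.29 without offsets, were then called lower. Cd36 was at -0.27 without and 0.01 with offsets. Fabp4 fell in both fits, but the offsets took it as a gene of 4489 bases and not of 896. Its value there does not show what a correction for a short transcript would give. Offsets by principal transcript were not tested for any gene.

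Marker transcripts of other cells moved with the same comparison. The summed level of 10 capillary endothelium markers was 526 to 997 CPM without hormone and 968 to 1301 CPM with it, with 6 markers called higher and 2 lower, while Gpihbp1, itself an endothelial gene, had a negative fold change. The summed level of 10 myeloid markers was 112 to 274 CPM without and 551 to 1111 CPM with hormone, with 6 called higher. The 10 brown adipocyte markers summed to 16562 to 47651 CPM without and 5931 to 10675 CPM with hormone, and 7 were called lower. No endothelial or brown adipocyte marker was at 0 in any mouse. Their part in the values of the 10 genes was not tested.

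**Figure D3:**
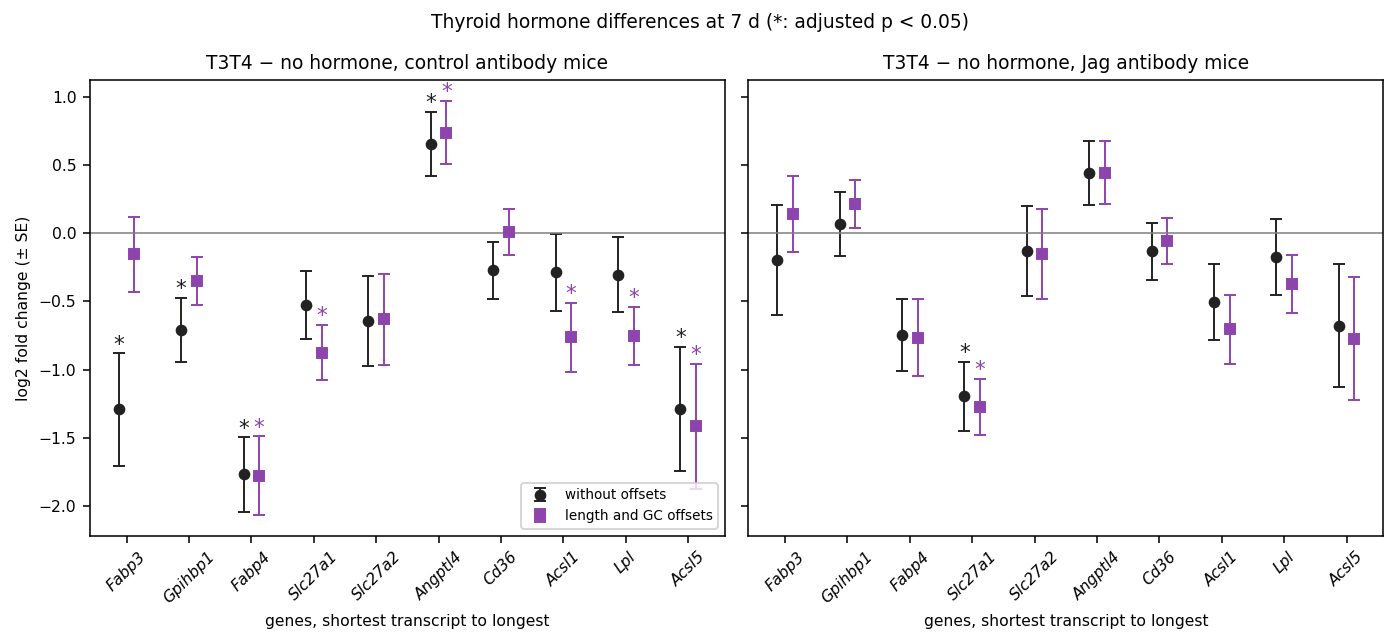
log2 fold change with thyroid hormone (vertical axis, ± SE) at 7 d in control antibody mice (left) and Jag antibody mice (right), with genes ordered from the shortest to the longest principal transcript (horizontal axis), in black without and in purple with length and GC offsets, and asterisks for an adjusted p under 0.05. In control mice Fabp3 moves from -1.29 to -0.15 and Lpl from -0.30 to -0.75 when offsets are added, while Fabp4 stays near -1.77. The offsets used the exonic length, which is 4489 bases for Fabp4, and not the principal transcript.

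In Jag antibody mice, hormone lowered 1 of the 10 genes and raised 0, against 5.21% of all tested genes called lower and 9.50% in either direction. Slc27a1 fell, from the values of 139 to 365 CPM given above to 142, 89.1, 110, 103 and 130 CPM. Hormone mouse 6 lay just above Jag antibody mouse 9 without hormone, and the other hormone mice were below every mouse without it. Its log2 fold change was -1.20 (SE 0.25, 2.29-fold lower), with an adjusted p of 0.00235, and it was called in all 10 fits that left out 1 mouse and with length and GC offsets. Without the mice of high muscle score it was -1.24 with an adjusted p of 0.0584. The Slc27a1 calls for the antibody at 7 d and for hormone in Jag antibody mice share the 5 Jag antibody mice without hormone. Fabp4 had 9644, 18473, 12145, 22945 and 15133 CPM without and 10674, 11440, 9209, 6947 and 8359 CPM with hormone, with overlap. Its log2 fold change was -0.75 (SE 0.27) with an adjusted p of 0.0662, and DESeq2 gave 0.0483. Acsl5 (-0.68), Angptl4 (0.44), Fabp3 (-0.20) and Gpihbp1 (0.07) were not called, and the median of the 10 genes was -0.18 beside -0.04 over all genes. The length slope moved with this comparison as well: it was -0.172 to 0.026 without hormone and 0.047 to 0.214 with it (exact two-sided permutation p = 0.00794, adjusted p 0.0586 over the library measures and comparisons). Of the markers, 3 of 10 myeloid ones were called higher, with a median of 1.37, and 2 of 10 brown adipocyte ones, Adipoq and Elovl3, lower. The part of the markers was not tested.

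The hormone difference was compared between antibodies as an interaction, and 0 of the 10 genes were called, against 0.00586% of all genes. At an unadjusted p under 0.05 there were 2, Fabp4 and Gpihbp1, against 12.3% of all genes, and DESeq2 called 0. The hormone difference of Fabp4 was higher in Jag antibody mice by 1.02 (SE 0.37, 95% interval 0.26 to 1.78) and that of Gpihbp1 by 0.78 (SE 0.33), both with an adjusted p of 0.374. Fabp3 (1.10, SE 0.57) and Slc27a1 (-0.67, SE 0.35) had an adjusted p of 0.424. The calls for hormone in control mice are therefore not shown to be particular to the control antibody, although the intervals are wide.

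Time was compared among control antibody mice. From 15 h to 5 d, 2 of the 10 genes were called, both lower, against 20.1% of all genes called lower and 36.4% in either direction. Angptl4 went from 764, 396, 805, 767 and 710 CPM at 15 h to 401, 380, 648, 426 and 277 CPM at 5 d, with mouse 2 low among the 15 h mice. Its log2 fold change was -0.69 (SE 0.23, adjusted p 0.0208), and the adjusted p was 0.0708 to 0.130 without mouse 3 or 4 at 15 h or mouse 2 or 5 at 5 d. Cd36 went from the 15 h values above to 2680, 2051, 1381, 2283 and 1369 CPM at 5 d. Its log2 fold change was -0.61 (SE 0.21, adjusted p 0.0225), with an adjusted p of 0.0583 to 0.115 in 5 of the 10 fits that left out 1 mouse (mouse 1 or 4 at 15 h, or mouse 2, 3 or 5 at 5 d) and a value of -0.12 with length and GC offsets. Both calls thus depended on single mice. A fit of these 2 groups alone called 0 of the 10 and 0 of all genes, against 6214 of all genes in the fit over 8 groups. The direction of the count also changed with the fit: it was 1 higher and 0 lower with the muscle score as a covariate, 2 higher and 1 lower with length and GC offsets, and 3 higher and 1 lower with offsets and the replicate block. Of the markers, 8 of 10 myeloid ones were called lower at 5 d, with a median log2 fold change of -3.44, and 3 of 10 brown adipocyte ones higher. Their part in these values was not tested.

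From 5 d to 7 d, 2 of the 10 genes were called, both higher, against 4.71% of all genes called higher and 9.13% in either direction. Acsl5 rose by 1.95 (SE 0.46, 3.86-fold, adjusted p 0.00911), from 226 to 603 CPM at 5 d to 940 to 1928 CPM at 7 d, without overlap, as for 4.41% of all genes, and was called in all 10 fits that left out 1 mouse. Fabp4 rose by 1.05 (SE 0.27, 2.07-fold, adjusted p 0.0134), from 8623, 17388, 7413, 8734 and 14060 CPM at 5 d, and the adjusted p was 0.0504 to 0.0786 without mouse 3 at 5 d or mouse 2 or 4 at 7 d. All 10 brown adipocyte markers had a positive difference from 5 d to 7 d (median 0.77), with 2 called higher. Of 10 myeloid markers 3 were called lower (median -1.47), and the part of the markers was not tested. The same 5 control mice at 7 d serve in this comparison, in the antibody comparison at 7 d and in the hormone comparison. The Acsl5 and Fabp4 differences of these comparisons are therefore not independent. Without the mice of high muscle score, which left 1 mouse at 5 d, Fabp4 was at 0.20 and Acsl5 at 1.24, with adjusted p-values of 0.885 and 0.492.

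Other genes of the route were taken from 3 lists: 18 genes of the lipase system (15 tested), 22 genes of fatty acid transfer (19 tested) and 8 PPAR-related factors (8 tested). Their counts stand beside the shares of all genes called, which for the antibodies were 1.14% at 15 h, 8.02% at 5 d, 2.50% at 7 d and 1.14% with hormone. At 15 h edgeR called 0 genes in each list, with 2, 1 and 1 at an unadjusted p under 0.05, and in mice given hormone it called 0, with 3, 2 and 0. At 5 d Apoc3, an apolipoprotein that inhibits lipoprotein lipase, was lower by -3.04 (adjusted p 0.0125), Got2, the mitochondrial aspartate aminotransferase also described as a fatty acid binding protein of the plasma membrane, by -1.88 (adjusted p 0.0159), and Acsl6, an acyl-CoA synthetase near its detection limit here, by -8.47 (adjusted p 0.00891). Ppargc1a, a coactivator of thermogenic genes, was higher by 1.11 (adjusted p 0.0489). In the same comparison 6 of 8 muscle markers, 2 of 3 white adipocyte markers and 2 of 3 tested hepatocyte markers (Ttr and Alb) were called lower, and control mouse 2 held the 125 CPM of hepatocyte markers. The part of these cells in the values of Apoc3, Got2 and Acsl6 was not tested. At 7 d Rxra, the partner of PPARs, was higher by 0.72 (adjusted p 0.0192) and Dbi, the acyl-CoA binding protein, lower by -1.28 (adjusted p 0.0421). In the mean antibody contrast, against 11.7% of all genes, 1 of 15 lipase system genes was higher and 2 lower, 0 and 3 of the 19 transfer genes, and 2 and 0 of the 8 factors. Lipg, endothelial lipase, was lower by -0.89 and Fabp5, a binding protein, by -0.89, with adjusted p-values of 0.00498 and 0.00470.

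With hormone in control mice, where 43.2% of all genes were called, 5 lipase system genes were higher and 4 lower, 5 and 3 in the transfer list, and 2 and 1 among the factors. Their medians were 0.40, 0.17 and 0.29. In the lipase system Scarb1, a lipoprotein receptor, was higher by 1.10 (adjusted p 5.01e-05) and Lrp1, a receptor for lipoprotein remnants, by 1.77 (adjusted p 0.000241). Apoc1, an apolipoprotein, was lower by -2.40 (adjusted p 9.14e-05). Among the transfer genes Dbi was lower by -2.22 (adjusted p 2.76e-05) and Vegfb, described as a regulator of endothelial fatty acid transport, by -0.99 (adjusted p 0.00642), while its receptor Nrp1 was higher by 1.24 (adjusted p 0.00208). Ppara was higher by 1.24 (adjusted p 0.0162) and Ppard by 0.68 (adjusted p 0.0103). In Jag antibody mice Scarb1 was higher by 1.29 (adjusted p 3.42e-05) and Lipg by 1.79 (adjusted p 0.00824), and Dbi (-1.29, adjusted p 0.0170), Angptl8 (-1.90, adjusted p 0.0258) and Rxra (-0.56, adjusted p 0.0322) were lower. These values are without length and GC offsets. With offsets the calls of Vegfb (-0.21, adjusted p 0.385) and Ppard (0.24, adjusted p 0.271) in control mice ended, and in the same mice Dbi was at -1.41, Apoc1 at -1.26, Lrp1 at 0.95 and Scarb1 at 0.65, all 4 still called. The other genes named here for hormone were also called with offsets.

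Between control mice of different times, against 36.4% of all genes in either direction and 20.1% lower, 6 lipase system genes were higher and 0 lower at 5 d than at 15 h, 7 and 4 of the transfer genes, and 2 and 0 of the factors. Lmf1, which is needed for the lipase to mature, was higher by 1.08 (adjusted p 0.00167), and Slc27a4, another transport protein, by 0.64 (adjusted p 0.00156). From 5 d to 7 d the counts were 3 and 0, 2 and 0, and 0 and 2, against 9.13% of all genes. Ppara was then lower by -1.43 (adjusted p 0.0296).

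Some of the 10 genes, but not all, also varied together from mouse to mouse within groups. Deviations of log2 CPM from the group means were correlated over the 40 mice for all 45 pairs, with 100000 permutations, and p-values were adjusted over the 45 pairs. Lpl and Acsl1 had r = 0.79 (Spearman's rho 0.73, permutation p = 1e-05, the smallest the permutations can give, adjusted p 0.000225) and were positively correlated within 6 of the 8 groups. Cd36 and Acsl1 had r = 0.79 (rho 0.73, permutation p = 1e-05, adjusted p 0.000225), positive within all 8 groups. Slc27a2 and Acsl1 had r = 0.73 (rho 0.68, permutation p = 3e-05, adjusted p 0.000270). Without the 2 mice farthest from the median of the first gene, these values of r were 0.73, 0.71 and 0.63. Over the 6 pairs among Lpl, Cd36, Slc27a2 and Acsl1 r ran from 0.50 to 0.79, and 5 of the 6 passed adjustment. Cd36 and Slc27a2, at r = 0.50, had an adjusted p of 0.0547 (rho 0.42, adjusted p 0.0948) and r = 0.31 without the 2 mice. Lpl and Cd36 were at 0.52 and Lpl and Slc27a2 at 0.46 without them. Among the 3 genes of short transcripts, Gpihbp1 and Fabp4 had r = 0.75, Gpihbp1 and Fabp3 0.74, and Fabp3 and Fabp4 0.60. Lpl had a negative r with these 3 genes, at -0.24 with Gpihbp1, -0.31 with Fabp4 and -0.34 with Fabp3. None of the 3 passed adjustment, nor did any pair that held Slc27a1, Angptl4 or Acsl5.

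After the length slope of each library was removed, the first 3 pairs had r = 0.76, 0.75 and 0.77, while the pairs of short transcripts had 0.44, 0.43 and 0.06. Gpihbp1 then had r = 0.64 with Acsl1 and 0.67 with Slc27a2, against 0.10 and 0.39 before. Lpl then had r = 0.46 with Gpihbp1, 0.40 with Fabp4 and 0.28 with Fabp3. Removing the muscle score instead left the Lpl and Acsl1 pair at 0.79. Acsl5 and Angptl4 had r between -0.26 and 0.30 before that removal for every pair that held 1 of them. Cell markers also varied within groups: in control mice at 15 h brown adipocyte markers summed to 2972 to 11775 CPM and myeloid markers to 299 to 6275. Mice 2 and 3 of that group, with the most myeloid markers, were lowest in it for Lpl, Cd36, Slc27a2 and Acsl1. The part of these markers in the correlations was not tested.

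**Figure D4:**
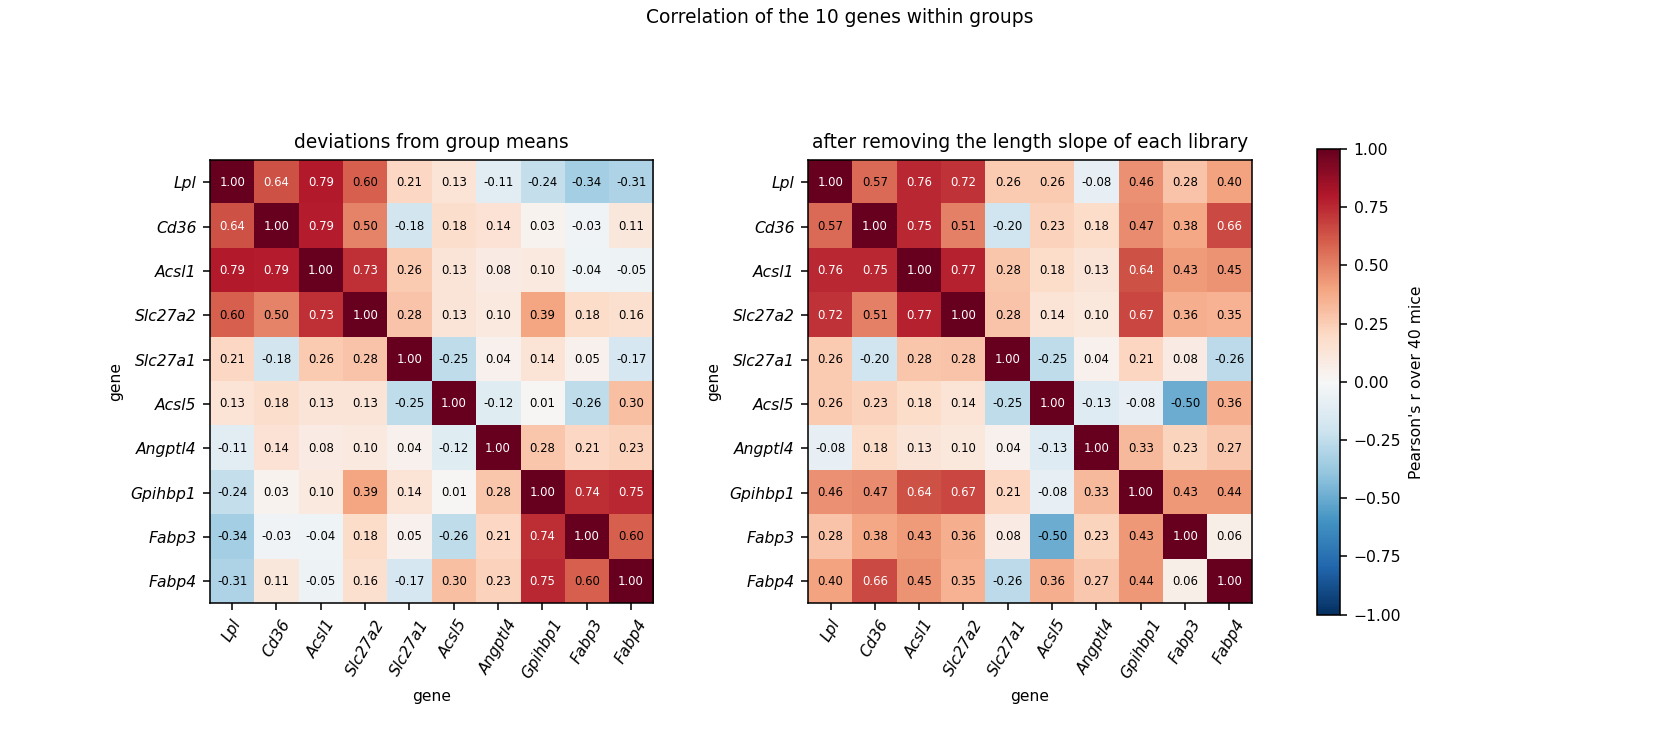
Pearson's r over 40 mice for every pair of the 10 genes (both axes), on deviations from group means (left) and after each library's length slope was also removed (right), with red for positive and blue for negative r. The block of Lpl, Cd36, Acsl1 and Slc27a2 stays at 0.51 or above on the right, while Fabp3 and Fabp4 go from 0.60 to 0.06.

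Over all tested genes outside the 10, the genes whose log2 CPM was most like each of them over the 40 mice, groups included, were found by Pearson's r, given here as a description. Acsl5 was most like Nsdhl (r = 0.95), an enzyme of cholesterol synthesis, and Pgd (0.93), an enzyme of the pentose phosphate pathway. Cd36 was most like D3Ertd751e (0.92) and Pus10 (0.89), and Fabp4 most like Tmem126b (0.93) and B430010I23Rik (0.92). Slc27a2 was most like Josd1 (0.88) and Gpat4 (0.87), a glycerol-3-phosphate acyltransferase of triglyceride synthesis. Acsl1 was most like Fitm2 (0.85), a lipid droplet gene, and Acad11 (0.83), an acyl-CoA dehydrogenase. Lpl was most like Slc4a4 (0.83) and Pde3b (0.82), Gpihbp1 most like Cox6b2 (0.88) and Guk1 (0.87), and Slc27a1 most like Prpf40b (0.77) and Kcnk2 (0.76). Angptl4 had the weakest likeness, with Nfe2l3 (0.70) and Mcm8 (0.68). Fabp3 was most like Fabp3-ps1 (0.96), a pseudogene copy of it, so reads may have been split between the copies and the Fabp3 values are uncertain for that reason, followed by Nsmce4a (0.82). The points share treatment group, depth and length slope.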

How the data were processed

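Per the labels' protocols, RNA from brown adipose tissue was extracted with Trizol and columns and sequenced as single-end reads on an Illumina HiSeq instrument. The submitters' processing notes name GSNAP and limma. The build, the counting program and its use of strand are not given in the sources used here. The authors deposited raw counts per Ensembl gene and a table of FPKM values for the same mice. For 100% of 10431 genes with at least 20 counts in every library, count divided by FPKM followed 1 factor per library within 0.1%. Of 52636 identifiers, 52403 matched a symbol and GENCODE M21.

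Counts were tested with edgeR 4.0.16 (R 4.3.3): filterByExpr over 8 groups, TMM, 1 robust quasi-likelihood model over 40 mice, F tests with Benjamini-Hochberg adjustment over 17079 genes at 0.05. CPM values use the TMM-scaled library size, and log2 CPM a prior count of 2. Single values of 5 against 5 mice used exact two-sided permutation tests. The muscle score is the mean log2 CPM of 8 muscle markers. The length in the length slope and the offsets is the exonic length, not that of the principal transcript. Alternatives were DESeq2 1.42.0, RLE factors, fits without the low-count filter, separate fits of the groups in each comparison, a covariate for the muscle score, per-library length and GC offsets, limma 3.58.1 on log2(FPKM + 1), the replicate number as a block, leaving out each mouse and, added after seeing the data, leaving out mice of high muscle score. The mean antibody contrast and the offsets for related genes were added likewise. On counts simulated for hormone in control mice, with 17079 genes, 28 of 100 genes changed by 1 log2 unit and 70 of 100 changed by 2 were recovered, with 7 false calls.

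The 10 genes, the marker lists and the lists of related genes were chosen with earlier results of these data known. All 10 genes were named, and of the related genes at most 4 called per list and comparison, by smallest p, some of which are not reported here. For each gene the 2 most alike genes were named.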

Additional observations from a re-analysis of the deposited data

Results flagged for a closer look

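In each gene and group, the highest and lowest of the 5 mice were compared with the nearest other mouse, and a gap over 0.71 of the group's range was marked. This held for 3 of 80 combinations of gene and group, and chance gives about 4. Gpihbp1 was low in Jag antibody mouse 6 at 7 d, at 6.55 log2 CPM against 7.10 in the next mouse. Angptl4 was low in control mouse 2 at 15 h, at 8.63 against 9.47. Acsl1 was low in Jag antibody mouse 8 at 7 d with hormone, at 10.37 against 10.69.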

How the results depend on the processing

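Counts of the 10 genes called changed as follows, with a mouse left out in turn giving the range. At 15 h the antibody count of 0 was 1 by DESeq2 and 1 with length and GC offsets (0 to 2 without 1 mouse). At 5 d the count of 1 was 2 by DESeq2, 2 in a fit of only those groups, 2 with offsets and 0 with the muscle covariate (1 to 3). At 7 d the count of 1 was 0 without the filter, 0 with only those groups and 2 by limma on log2(FPKM + 1) (0 to 2). At 7 d with hormone the count of 0 was 1 with only those groups and 1 with offsets (0 to 0). For hormone in control mice the count of 5 ranged from 3 (without control mouse 2 or 4) to 6, and in Jag antibody mice the count of 1 was 2 by DESeq2 (1 to 2). Between 5 d and 7 d the interaction count of 0 was 1 with offsets. In control mice from 15 h to 5 d the count of 2 was 0 without the filter, 0 with only those groups and 1, higher, with the muscle covariate (0 to 3), and from 5 d to 7 d it was 1 with only those groups and 1 with the covariate (1 to 2). For the mean antibody contrast 6 became 5 to 6 without 1 mouse and 8 (7 higher, 1 lower) with offsets, where Gpihbp1 (0.34) and Fabp3 (0.41) were also called. With only the 22 mice of low muscle score, in groups of 1 to 5, the counts were 0 at 5 d, 0 at 7 d, 0 for hormone in control mice, 0 in Jag antibody mice, 0 and 0 for the time comparisons and 1 for the mean contrast. Fewer mice enter that fit.

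Signs that turned belong to values that were not called: Cd36 for the antibody at 7 d (-0.039 without mice of high muscle score), Cd36 for hormone in control mice (0.0081 with offsets, 0.0057 with block and offsets), Fabp3 for hormone in Jag antibody mice (0.14 and 0.15 likewise), Gpihbp1 there (-0.076 without mice of high muscle score, -0.053 to 0.15 without 1 mouse), and Acsl5 for the antibody at 15 h (-0.37 to 0.77 without 1 mouse). The causes were not tested.

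Mice of different groups share numbers in hormone and time comparisons only. Same-numbered mice did not deviate together in every pair (lowest pair r -0.36), and 1 or 2 of 5 correlated best with their own number. Their mean r was higher than that of other numbers in each pair of groups, at 0.11 to 0.19 against -0.05 to -0.03. With the replicate block the counts were 5 and 1 for hormone, 0 and 0 for the interactions and 2 and 2 for time, and with block and offsets 1 for the 5 d to 7 d interaction and 4 from 15 h to 5 d. No paired antibody analysis was possible because control and Jag antibody mice share no number. The mean contrast was not run with the block or with only the groups compared. At this depth every gene had at least 548 counts in each mouse, so the spread between mice, not counting error, limits these values.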
